A study of Mus musculus with 47 samples.

Results

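In 3 of the 47 leukaemic mouse spleens of this series, RNA for Prg2 stood clearly above the level of the others, and those 3 spleens are described here. They were chosen by that value: the deposited log2 expression of the single probe set for Prg2 lay above 7 in 3 spleens and at or below 7 in 44. The 3 are called P1, P2 and P3 in order of their Prg2 level. Prg2 stood at 11.78 in P1, 7.48 in P2 and 7.38 in P3. In the 44 it ran from 4.99 to 6.39 with a median of 5.11, so P3, just inside the limit, was 0.99 log2 units above the highest spleen outside it. The next values below the limit were 6.39, 6.32, 6.29 and 6.14. Because Prg2 set the sides, its values are a description and were not tested. Of the 3 markers given for these cells, Epx was far above the 44 in P1 only and Mcpt8 in P1 and P3 only, so the 3 spleens are called by their Prg2 level and not by a cell type.

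Prg2 encodes major basic protein, a toxic cationic protein that fills the crystalline core of eosinophil granules. Eosinophils store it beside eosinophil peroxidase (Epx) and the related protein Prg3, while mouse basophils are known by the serine protease Mcpt8, the high-affinity IgE receptor and the protease Cpa3, which mast cells share. Both cell types arise in the marrow from myeloid progenitors that depend on GATA factors, and both can be found in mouse spleen.

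Each spleen came from a different mouse at terminal stage, with a diagnosis of undifferentiated myeloid leukaemia, and total RNA was hybridised to 1 Affymetrix mouse genome array. Every mouse carried a Cre transgene, Tg(ACTB-cre)2Mrt, whose ACTB promoter is active in most tissues. Every mouse also carried the conditional Sleeping Beauty transposase at the Rosa26 locus, Gt(ROSA)26Sortm2(sb11)Njen, and a concatemer of the mutagenic T2/Onc2 transposon, TgTn(sb-T2/Onc2)6113Njen in 21 mice or TgTn(sb-T2/Onc2)6070Njen in 26. No untreated or wild-type spleen was analysed here, so each comparison is of tumours with tumours. By the labels, 26 tumours had a transposon insertion in Erg and 21 had none. Ages at necropsy ran from 32 to 97 in a unit the labels do not give.

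P1 is labelled as a tumour without an Erg insertion from a male of line 6070, at age 63. P2 is labelled as a tumour with an Erg insertion from a female of line 6113, at age 83. P3 is labelled as a tumour with an Erg insertion from a male of line 6070, at age 50. The tumour identifiers hold a number whose meaning the labels do not give, 8 for P1, 9 for P2 and 7 for P3. Number 7 was held by 11 of the 47 arrays, 8 by 3 and 9 by 33. With this number as a block, each of the 3 spleens is thus compared within a different level, and that of P1 holds only 3 arrays. The mean age was 65.3 ± 16.6 (SD, n = 3) against 65.1 ± 15.4 (SD, n = 44), a difference of 0.242 with an exact permutation p of 0.998 (two-sided). The difference turned to -8.59 without P2. An Erg insertion was labelled in 2 of 3 against 24 of 44 (Fisher's exact test, two-sided, p = 1.0), line 6070 likewise in 2 of 3 against 24 of 44 (p = 1.0), and male sex in 2 of 3 against 20 of 44 (p = 0.593). With 3 spleens on this side no split could have brought these Fisher tests under 0.05 (the smallest possible p is 0.0820 for the Erg label and for line, and 0.0950 for sex), so they say nothing about whether the labels differ. These labels need care, since the sex-chromosome transcript Xist, read alone, went against the labelled sex on 24 of the 47 arrays. P2 and P3 were among them, while P1 matched.

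P1 also stood apart as an array. The gap between 3′ and 5′ probe sets of the control transcripts, which widens as RNA degrades, was 2.96 log2 units in P1, above all of the 44 (0.652 to 2.61, median 1.29), while P2 at 1.60 and P3 at 1.40 lay within them. The gap was larger in the 3 than in the 44 by an exact permutation test (two-sided, p = 0.0401). The median correlation of P1 with the other 46 arrays was 0.923, the lowest of the 47, against 0.956 for P2 and 0.967 for P3. Results are therefore given with and without P1, and the part of RNA quality in them was not tested. In bulk RNA, fewer cells of a type and less RNA per cell cannot be told apart.

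The 250 bases upstream of the annotated start are shown for the eosinophil and basophil genes that the results turn on, because these genes moved together in P1, or in P1 and P3, and their regulation is commonly discussed in terms of GATA factors. The sequences are from RefSeq on GRCm38.p6 and run 5′ to 3′ on the strand of the gene. Capitals mark the motif GATAA or its reverse complement TTATC. Prg2 was not among the promoters matched.
Epx, minus strand, chr11:87875537-87875786: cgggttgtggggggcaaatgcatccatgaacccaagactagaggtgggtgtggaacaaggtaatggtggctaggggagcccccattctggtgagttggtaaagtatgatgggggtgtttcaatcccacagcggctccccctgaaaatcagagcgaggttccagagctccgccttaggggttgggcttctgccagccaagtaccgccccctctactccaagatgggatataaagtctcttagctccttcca
Prg3, plus strand, chr2:84987965-84988214: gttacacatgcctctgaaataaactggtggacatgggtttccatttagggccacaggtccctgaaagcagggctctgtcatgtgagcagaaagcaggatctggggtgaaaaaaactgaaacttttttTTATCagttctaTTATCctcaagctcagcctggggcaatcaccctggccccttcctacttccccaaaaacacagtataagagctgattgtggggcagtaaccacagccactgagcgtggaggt
Mcpt8, minus strand, chr14:56085198-56085447: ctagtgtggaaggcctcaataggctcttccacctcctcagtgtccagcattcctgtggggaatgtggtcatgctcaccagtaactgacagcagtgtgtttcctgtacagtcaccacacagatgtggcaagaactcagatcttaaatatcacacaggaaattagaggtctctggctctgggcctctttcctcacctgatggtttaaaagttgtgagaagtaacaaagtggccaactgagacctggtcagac
Cpa3, minus strand, chr3:20242182-20242431: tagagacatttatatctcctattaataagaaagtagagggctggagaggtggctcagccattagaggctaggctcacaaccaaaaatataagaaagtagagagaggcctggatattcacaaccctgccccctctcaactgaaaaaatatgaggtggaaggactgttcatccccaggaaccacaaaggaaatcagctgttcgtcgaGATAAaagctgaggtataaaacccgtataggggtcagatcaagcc
Ms4a2, minus strand, chr19:11623720-11623969: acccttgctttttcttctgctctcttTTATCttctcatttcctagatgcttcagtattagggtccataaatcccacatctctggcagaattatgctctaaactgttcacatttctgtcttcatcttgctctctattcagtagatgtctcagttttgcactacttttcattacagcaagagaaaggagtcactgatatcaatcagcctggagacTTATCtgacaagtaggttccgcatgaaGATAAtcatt
The motif was searched on both strands. Prg3 held 2 matches, 123 and 111 bases before the start, Cpa3 held 1 at 45 bases, and Ms4a2 held 3, at 224, 37 and 10 bases. Epx and Mcpt8 held 0. Of 32851 mouse promoter windows of 250 bases, 22.6% held at least 1 match and 4.28% held 2 or more. A match is a description of the letters and not a bound site.

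The eosinophil granule genes Epx and Prg3 were higher with Prg2, but nearly all of the height came from P1. Epx stood at 11.30 in P1, 5.83 in P2 and 5.28 in P3, against 5.02 to 5.66 in the 44. P1 was thus more than 5 log2 units above every other spleen, P2 was just above the range of the 44 and P3 lay inside it. Prg3 followed the same order, at 9.14, 5.52 and 5.42 against a highest value of 5.69 in the 44. By limma, across all genes tested, Epx was higher in the 3 by 2.34 ± 0.42 log2 units (SE, adjusted p = 0.00070) and Prg3 by 1.53 ± 0.27 (adjusted p = 0.00063). These SEs rest on a spread pooled over both sides, which the 44 mostly set, and do not carry the spread among the 3. The SD in the 3 was 3.33 for Epx and 2.12 for Prg3, against 0.11 and 0.12 in the 44. Without P1 the difference of Epx was 0.42 (adjusted p = 0.0067) and that of Prg3 was 0.31 (adjusted p = 0.14). These were the 2 tested of 9 listed eosinophil granule genes, and both passed, with a median difference of 1.94 against 0.01 over all 18177 genes. Across those genes, 229 were higher in the 3 spleens at an adjusted p under 0.05 (1.26%) and 84 were lower (0.462%). The other 6 listed genes, of the eosinophil-associated ribonuclease family, had no probe set that names a single gene. The related Ear3, chosen because P1 was furthest above the others, was 8.59 in P1, 5.14 in P2 and 5.06 in P3, with a highest value of 6.86 in the 44.

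**Figure D1:**
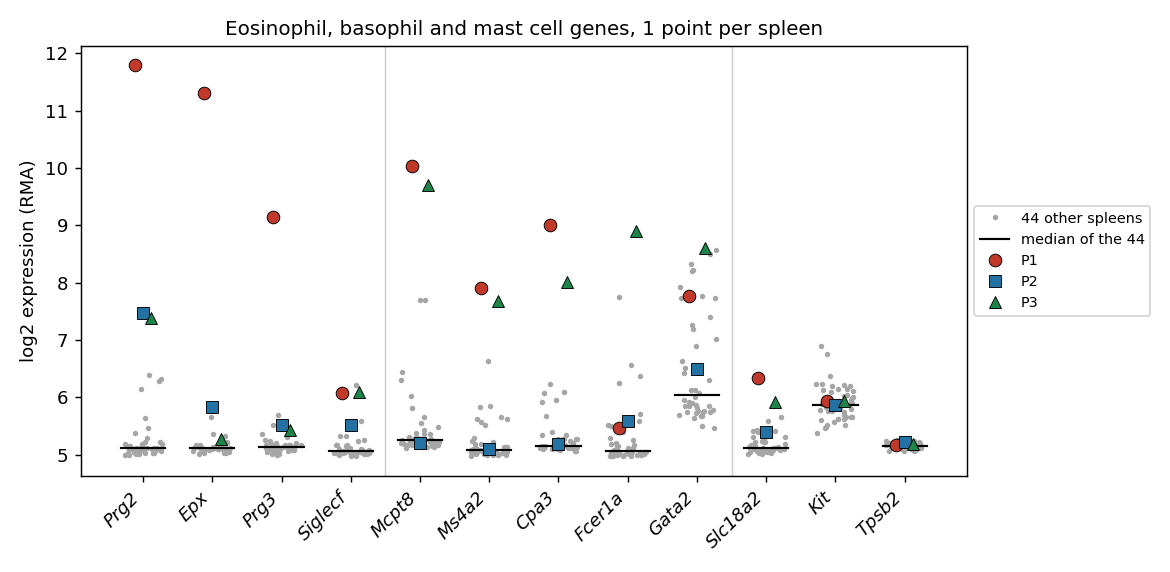
Log2 expression of eosinophil genes (left), basophil genes (middle) and mast cell genes (right), with 1 point per spleen, the 44 other spleens in grey and their median as a line. P1 is far above the rest for Prg2, Epx and Prg3; P1 and P3 are above them for Mcpt8, Ms4a2 and Cpa3; P2 is close to the median for those 3 basophil genes, and Kit and Tpsb2 lie within the range of the 44 in all 3.

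Among genes of the eosinophil surface and lipid-mediator enzymes, 3 of 13 tested were higher in the 3 spleens and 0 were lower. The list's median difference was 0.36. Its list mean was 5.995 in P1, 6.214 in P2 and 6.048 in P3, against at most 6.166 in the 44. The largest differences were those of Cd9 (1.14), Alox5 (1.05) and Ptger3 (1.03), and none of these passed. In P1, P2 and P3, Cd9 was 7.33, 8.88 and 8.74, Alox5 was 7.05, 7.57 and 7.50, and Ptger3 was 6.25, 8.81 and 8.18. Of the 3 spleens, P2 was thus highest and P1 lowest for each, and all lay within the 44. Siglecf, the sialic acid receptor that marks mouse eosinophils, was 6.08 in P1, 5.52 in P2 and 6.09 in P3 against a median of 5.07. All 3 lay above that median, but 1 spleen of the 44 was higher than all of them, at 6.21. Siglecf was higher by 0.78 ± 0.12 log2 units (SE, limma adjusted p = 0.00011) and passed without each of the 3 in turn. Alox15, a lipoxygenase of eosinophils and some macrophages, was 6.43 in P1 but 5.08 and 5.20 in P2 and P3, and its difference of 0.45 fell to 0.02 without P1 (limma adjusted p = 0.033 with it) and missed the threshold with the tumour number as a block (adjusted p = 0.15). The complement receptor C3ar1 was higher by 0.16 (adjusted p = 0.0079; 0.27 without P2), with values of 5.30, 5.54 and 5.31 against a median of 5.23. The IL-5 receptor Il5ra was at 5.36, 5.06 and 5.07 against 4.97 to 5.28 in the 44, and the eotaxin receptor Ccr3 was at 5.21, 5.18 and 5.10, within the 44. Neither passed, and both lay near the floor of these arrays at about log2 5, where differences are compressed.

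The basophil genes Mcpt8, Ms4a2 and Cpa3 were high in P1 and P3 and not in P2. Mcpt8 stood at 10.03 in P1, 5.20 in P2 and 9.71 in P3, against a median of 5.25 and a highest value of 7.70 in the 44. Ms4a2, the beta chain of the IgE receptor, was 7.91, 5.10 and 7.68 against a highest value of 6.63. Cpa3, a carboxypeptidase of basophil and mast cell granules, was 9.00, 5.18 and 8.02 against a highest value of 6.24. For each of the 3 genes, P1 and P3 were the highest of all 47 spleens and P2 lay within the 44. Its second probe set gave Ms4a2 the same order, with 5.97 in P1 and 5.77 in P3 against a highest value of 5.29 in the 44 and 5.08 in P2.

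Of 16 basophil genes tested, 10 were higher and 0 lower, with a median difference of 0.62. By limma the differences were 2.86 ± 0.47 for Mcpt8 (SE, adjusted p = 0.00018), 2.11 ± 0.30 for Cpa3 (adjusted p = 1.8e-05) and 1.69 ± 0.27 for Ms4a2 (adjusted p = 0.00011). Here too the 44 mostly set the SEs, since the SD of Mcpt8 was 2.70 in the 3 and 0.57 in the 44. The steroid enzyme Cyp11a1, the histamine-forming enzyme Hdc, the CD200 receptor family member Cd200r3, the IL-3 receptor chain Il3ra and the IL-18 receptor chain Il18rap were all highest in P1 among the 47. Cyp11a1 was 6.96, 5.10 and 5.57, and Hdc was 6.30, 5.36 and 5.70. Fcer1g, the signalling chain that many Fc receptors share, was instead highest in P1 and P2, at 8.66 and 8.34, and at the median of the 44 in P3 (6.79). The number of basophil genes called was 2 without P1, 9 without P2 and 10 without P3. Without P1, Mcpt8 differed by 2.00 (adjusted p = 0.083) and Ms4a2 by 1.18 (adjusted p = 0.061), with Cpa3 still past the threshold at 1.31 (adjusted p = 0.027). P2 was above all 44 for 2 of the 16, Fcer1g and Itga2b. With the number in the tumour identifiers as a block, 6 basophil genes were called; Il3ra, Il18rap, Fcer1g and Itga2b lost the call.

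Fcer1a, the alpha chain that binds IgE, separated P3 from P1. It was 8.91 in P3, the highest of 47, but 5.46 in P1 and 5.60 in P2, within the 4.97 to 7.76 of the 44. Over the 3 spleens it differed by 1.37 ± 0.39 log2 units and just missed the threshold (SE, limma adjusted p = 0.054). It passed without P1 (adjusted p = 0.027) and without P2 (adjusted p = 0.016), and stood at 0.24 without P3 (adjusted p = 0.82). P1 and P3 thus shared Mcpt8, Ms4a2 and Cpa3 but not this receptor chain. The transcription factor Gata2, which progenitors, basophils and mast cells use, was 7.77, 6.50 and 8.61 against 5.46 to 8.57, and it did not pass (adjusted p = 0.39). P3 exceeded the highest of the 44 only narrowly there, and a second Gata2 probe set placed it at 6.60, ranked 8 of 47. Il4, Ccl3, Ccl4 and Csf1, cytokine genes of the list, all lay within the 44 in each of the 3 spleens.

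The 4 spleens just under the limit held the highest Mcpt8, Ms4a2, Epx and Siglecf values of the 44, though not all in 1 spleen. They did not hold the highest Cpa3, Prg3, Fcer1a, Ear3 or Gata2. For these genes the 4 reached at most 6.07, 5.52, 5.51, 5.73 and 7.27, against 6.24, 5.69, 7.76, 6.86 and 8.57 in the 44. In order of falling Prg2, their Mcpt8 was 6.45, 7.70, 5.48 and 7.70 and their Epx 5.33, 5.36, 5.23 and 5.66. Mcpt8 above 7 was found in 4 of the 47 spleens, P1, P3 and 2 of these 4.

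Mast cell genes did not follow Prg2 as a list: 1 of 12 tested was higher, 0 were lower and the median difference was 0.01. The gene that passed was Slc18a2, the vesicular monoamine transporter that loads histamine, at 6.33 in P1, 5.39 in P2 and 5.92 in P3 against a highest value of 5.66 in the 44. Its difference was 0.71 ± 0.11 (SE, limma adjusted p = 4.1e-05), and it passed without each of the 3 in turn. The stem cell factor receptor Kit was 5.93, 5.87 and 5.93 around a median of 5.87, and the tryptase Tpsb2 and the chymases Mcpt1, Mcpt2 and Mcpt4 stayed between 4.94 and 5.23 in the 3. Chymase Cma1 was 5.54, 5.12 and 5.45, within the 44. The defining proteases of mast cells were thus at or near the floor where Mcpt8 and Cpa3 were high.

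Genes for the signals that drive eosinophil and basophil growth gave few calls. Of 20 type 2 cytokine and receptor genes, 1 was higher (Il3ra, by 0.28, limma adjusted p = 0.030, and by 0.06 without P1) and 0 were lower, with a median difference of 0.06. Il5, the eosinophil growth factor, was at 5.06, 5.03 and 5.11 against 4.97 to 5.16. Csf2rb, the receptor chain shared by IL-3, IL-5 and GM-CSF, was 8.99 in P1, the highest of 47, 8.31 in P2 and 7.41 in P3 against a median of 6.95, and did not pass. Of 17 granulocyte lineage factors, 0 passed in either direction, with a median difference of 0.26. Cebpa was 5.67, 5.43 and 5.75 against a median of 5.34, and Cebpb was 8.17, 6.93 and 6.52 against a median of 6.36. Feedback genes of JAK-STAT signalling gave 0 of 16 in either direction, with a median of 0.07; the cytokine gene Osm was 6.19 in P1, the highest of 47, and Jak1 was 6.46 in P1, the lowest.

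Neutrophil granule genes were high in P1 and P2. In P3 the late granule genes were low, while 8 of 11 primary granule genes were above the median of the 44. Of 11 primary granule genes 5 were higher and 0 lower (median difference 1.15), and of 21 late granule genes 6 were higher and 0 lower (median difference 0.77). Spleen by spleen, the median late granule gene lay 1.85 log2 units above the median of the 44 in P1, 1.03 above it in P2 and at -0.06 in P3. All 21 late genes were above that median in P1 and in P2, and 7 of 21 were in P3. S100a8, a calcium-binding alarmin of neutrophils, was 11.99 and 11.17 in P1 and P2 but 5.22 in P3, where only 2 spleens were lower. Chil3, a secreted chitinase-like protein, was 10.78, 9.60 and 5.09, the highest of 47 in P1 and the lowest in P3. Mpo, the peroxidase of primary granules and a marker of myeloid leukaemia, was 8.64, 7.10 and 5.59 against a median of 5.60. Its ranks were 2, 5 and 26 of 47. The elastase gene Elane was near the floor in all 3 at 5.73, 5.57 and 5.44.

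The neutrophil genes that passed were led by Ctsg and Ms4a3. Ctsg, the protease cathepsin G, was 8.50, 6.11 and 7.45 against a median of 5.47, a difference of 1.70 ± 0.35 (SE, limma adjusted p = 0.0042). Ms4a3, a membrane protein of granulocyte progenitors, was 8.05, 6.69 and 6.55 against a median of 5.26, a difference of 1.65 ± 0.26 (adjusted p = 0.00011). Both were above the median of the 44 in all 3 spleens, most of all in P1. Cst7, a cystatin, was highest in P3 at 7.66, with 7.06 in P1 and 6.01 in P2. The secreted granule protein Olfm4 was high in P2, with 7.67 against 5.53 in P1, 5.03 in P3 and at most 5.38 in the 44. Stfa2l1 and Pglyrp1 were highest in P1, at 7.49 and 6.91, and near the floor in P3. Without P1, 0 primary and 1 late granule gene (Olfm4) passed, and without P3, 6 and 14 did.

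**Figure D2:**
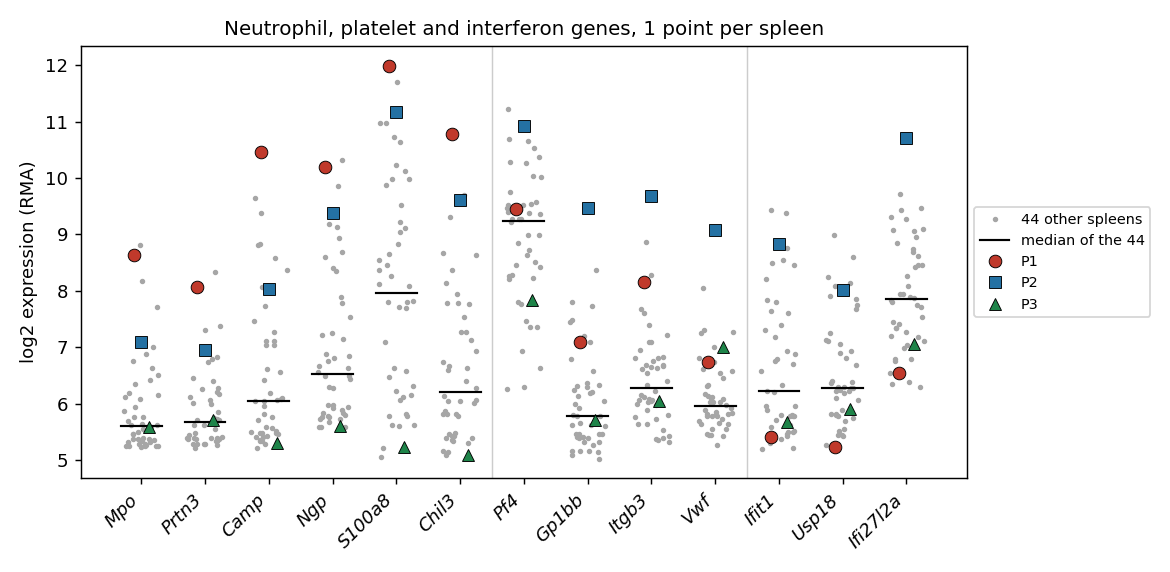
Log2 expression of neutrophil genes (left), platelet genes (middle) and interferon-stimulated genes (right), with 1 point per spleen and the median of the 44 as a line. P1 and P2 are high and P3 is low for the late neutrophil genes Camp, Ngp, S100a8 and Chil3. P2 is the highest of the 3 for every platelet and interferon-stimulated gene shown, with P1 also above the median for Pf4, Gp1bb, Itgb3 and Vwf.

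Megakaryocyte and platelet genes marked P2. Of 18 tested, 4 were higher over the 3 spleens and 0 lower, with a median difference of 0.70. P2 was above all 44 for 11 of the 18 and had the highest list mean of the 47, while P1 and P3 were each above all 44 for 1. P1 was above the median of the 44 for 14 of the 18 and its list mean ranked 7 of 47. P3 was above that median for 10 and ranked 18. The platelet receptor subunit Gp1bb was 9.47 in P2 against 7.09 in P1, 5.70 in P3 and at most 8.37 in the 44. The integrin chain Itgb3 was 9.69, with 8.16 in P1 and 6.04 in P3. Vwf, the adhesive protein of platelets and endothelium, was 9.08 in P2, 6.73 in P1 and 7.00 in P3, and its difference of 1.49 ± 0.38 (SE, limma adjusted p = 0.025) was 0.76 without P2 (adjusted p = 0.39). Itga2b, the partner chain of Itgb3 that some basophils and progenitors also carry, was 9.33, 10.10 and 8.17 against a median of 7.64 and passed narrowly (adjusted p = 0.049); it missed the threshold without P1 and without P2. Mrvi1, a substrate of cGMP kinase in platelets and smooth muscle, was 6.38, 7.70 and 7.22 and higher by 1.31 ± 0.26 (adjusted p = 0.0023). Gp6, the platelet collagen receptor, was 5.34, 5.96 and 5.32 against a median of 5.25. Without P2, 0 platelet genes passed.

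P2 was also the highest of the 3 for the median interferon-stimulated and stromal gene. All 20 interferon-stimulated genes tested were above the median of the 44 in P2, by a median of 1.18 log2 units, whereas 2 of 20 were in P1 and 2 of 20 in P3. P2 was above all 44 for only 3 of the 20. Its list mean of 7.47 ranked 3 of 47, below the highest of the 44 at 7.60, so this height was not particular to P2. Ifi27l2a was 10.71 in P2, the highest of 47, with 6.54 in P1 and 7.06 in P3, and the interferon-induced deubiquitinase Usp18 was 8.02 in P2 and 5.24 in P1, the lowest of 47. Over the 3 spleens 0 of these 20 genes passed in either direction, and the median difference was 0.01. Of 23 stromal and endothelial genes, 2 were higher (median difference 0.20), and P2 was above all 44 for 8. The collagen gene Col1a2 was 7.56, 9.74 and 8.55 against a median of 7.55, a difference of 1.11 ± 0.31 (SE, limma adjusted p = 0.047) that was 0.55 without P2 (adjusted p = 0.47) and missed the threshold without P3 (adjusted p = 0.065); the matrix glycoprotein Tnc was 7.02 in P2 and at most 5.33 in the 44.

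The remaining cell types showed few or no calls. In the monocyte and macrophage list 0 of 22 passed (median 0.02), and P3 was above the median of the 44 for 2 of 22 against 14 in P1 and 20 in P2. Alternative macrophage genes gave 0 of 9 (median 0.06), erythroid genes 0 of 20 (median -0.04), plasma cell genes 0 of 12 (median -0.02) and dendritic and MHC class II genes 0 of 16 (median -0.19). B cell genes gave 0 of 23 in either direction, although 22 of 23 differences were negative and their median was -0.48. Over all genes 55.7% of differences were positive. These differences are from the mean of the 44, of which 14 had Vpreb1 above 7. Set against the median of the 44, the median B cell gene lay at -0.02 in P1, -0.22 in P2 and -0.13 in P3. Of the 23, 11 were above that median in P1, 1 in P2 and 3 in P3. Vpreb1, part of the surrogate light chain in pre-B cells, was 9.82 in P1, the eighth highest of 47, against 5.22 in P2 and 5.40 in P3. T and NK cell genes gave 1 of 23 (Nkg7), with a median of -0.19. Stem and progenitor genes gave 1 of 22, Angpt1, a ligand of the TEK receptor, at 6.03, 6.90 and 6.84 against a median of 5.67, with a list median of 0.06; it missed the threshold without P2 and without P3. Cell cycle genes gave 0 of 24 with a median of -0.16; Pcna, the clamp of DNA replication, was 9.73 in P1, the lowest of 47. In each list the count of genes lower in the 3 spleens was 0.

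**Figure D3:**
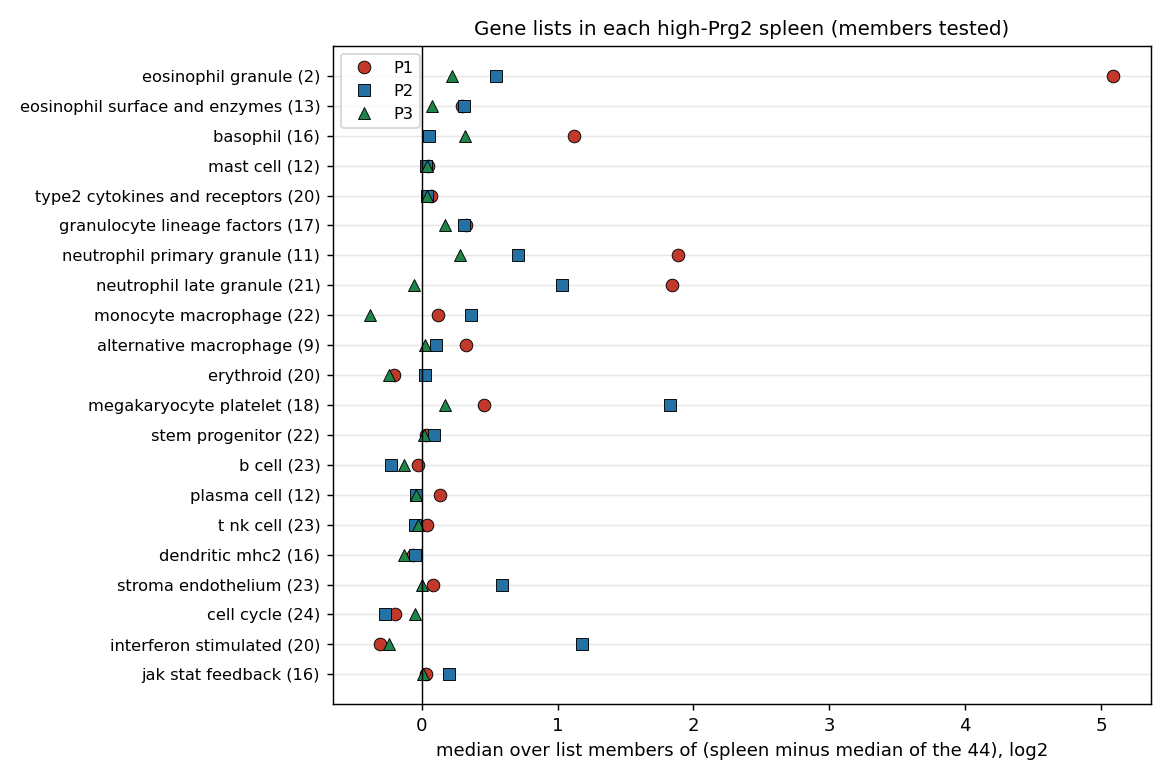
For each gene list, with the number of members tested in brackets, the median over members of the spleen's log2 value minus the median of the 44 is shown on the horizontal axis for P1, P2 and P3. P1 leads for eosinophil granule, basophil and neutrophil genes, and P2 leads for platelet genes at 1.83, interferon-stimulated genes at 1.18 and stromal genes at 0.59.

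Over all genes, the 3 spleens had little in common beyond the direction of change. Of the 229 higher genes, P1 held the highest of the 3 values in 149, P2 in 55 and P3 in 25. All 3 spleens were above the median of the 44 in 196, but all 3 lay outside its range in 8, 2 of the 3 in 71 and only 1 in 142. Of the 84 lower genes P1 was the lowest of the 3 in 79. The difference was more than 1 log2 unit in 31 of the higher genes and in 0 of the lower. Without P1 the counts were 69 higher and 0 lower by limma, with 1015 genes at an unadjusted p under 0.05, and 54 of the 69 were among the 229. Without P2 they were 303 and 95, and without P3 507 and 394. Of the 229 higher genes 17 passed in each of these 3 fits, and of the 84 lower genes 0 did.

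Genes raised in all 3 spleens were few and of mixed function. All 3 lay above all 44 for 8 genes (0.044%) and below all 44 for 3 genes (0.0165%). Btnl9, a butyrophilin-like membrane protein, was 5.98 in P1, 6.54 in P2 and 6.10 in P3 against 5.10 to 5.76 in the 44. Tuba8, an alpha-tubulin, was 6.58, 6.11 and 7.05 against 5.22 to 5.99. These were the clearest separations, at 0.94 ± 0.08 log2 units for Btnl9 (SE, limma adjusted p = 4.8e-11) and 1.11 ± 0.11 for Tuba8 (adjusted p = 1.3e-09), and both passed without each of the 3. A second probe set for Tuba8 also placed all 3 above the 44, at 5.34, 5.44 and 5.65 against a highest value of 5.29. A second probe set for Btnl9 did not separate them: it gave 5.00, 5.13 and 5.23 against 4.96 to 5.20, with P1 ranked 44 of 47 and P3 just above the 44. The remaining genes, Tbc1d9b, Alox12e, Cln3, Ddah1, Unc5b and Cd40lg, passed with differences between 0.11 and 0.37, and Cd40lg missed the threshold with the tumour number as a block (adjusted p = 0.098). None of them passed without each spleen in turn. By limma Ddah1 missed the threshold without P2 (adjusted p = 0.11), and the rest missed it without P1 (0.21 to 0.68). The margins were also small, with Cln3 in P2 at 5.424 against a highest value of 5.423 in the 44.

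Nkg7, a granule membrane protein of cytotoxic lymphocytes, was the most even of the large differences. It stood at 7.90 in P1, 7.62 in P2 and 7.67 in P3 against a median of 5.78, and the highest of the 44 was 7.67. Its difference was 1.89 ± 0.26 (SE, limma adjusted p = 9.8e-06) and lay between 1.81 and 1.95 when each spleen was left out. In the T and NK cell list it was the only gene to pass; for example, Cd3e was 5.43, 5.33 and 5.40 around a median of 5.38, and Gzmb was 8.42 in P1 but 6.55 and 5.50 in P2 and P3. Ccl9, a chemokine of myeloid cells, was similarly even at 7.67, 6.99 and 7.09 against a median of 5.51, higher by 1.59 ± 0.29 (adjusted p = 0.00082; 0.061 without P1). Alox5ap, the partner protein of 5-lipoxygenase in leukotriene synthesis, was 9.17, 7.29 and 6.99 against a median of 6.14, and missed the threshold without P1 (adjusted p = 0.016 with it and 0.84 without) and with the tumour number as a block (0.085). The antiprotease Slpi was 8.09, 9.21 and 5.96, so that P3 lay just below the median of 6.01; its difference of 1.58 ± 0.38 (adjusted p = 0.017) missed the threshold without P1 and without P2.

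**Figure D4:**
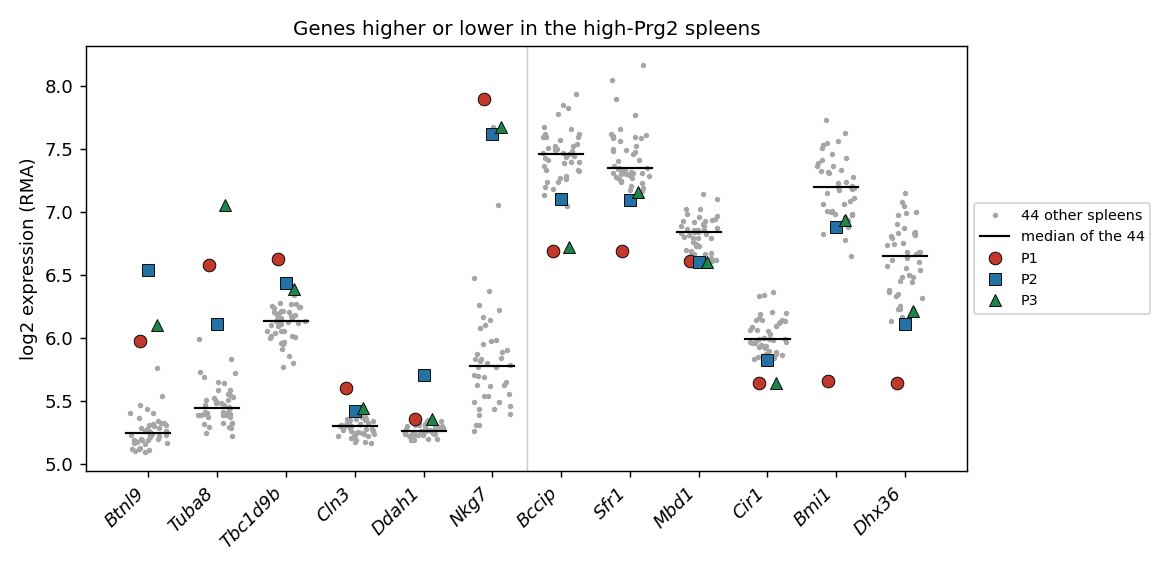
Log2 expression of genes higher (left) or lower (right) in the 3 spleens, with 1 point per spleen and the median of the 44 as a line. P1, P2 and P3 are all above the 44 for Btnl9, Tuba8, Tbc1d9b, Cln3 and Ddah1, while for Bmi1 and Dhx36 P1 is the furthest below.

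The genes that were lower differed by less, and chiefly through P1. The largest was Bmi1, a Polycomb protein of stem cell renewal, at 5.66 in P1, 6.88 in P2 and 6.93 in P3 against 6.65 to 7.73 in the 44. It fell by 0.70 ± 0.17 log2 units (SE, limma adjusted p = 0.017), and by 0.28 without P1 (adjusted p = 0.999). Bccip, a partner of BRCA2 and CDKN1A, was lower in all 3, at 6.69, 7.10 and 6.72 against 7.05 to 7.93, and fell by 0.62 ± 0.12 (adjusted p = 0.0013; 0.074 without P1). The helicase gene Dhx36 was 5.64, 6.11 and 6.21, the RNA-binding protein gene Syncrip 6.44, 7.22 and 7.79 and the endosomal sorting gene Snx5 6.88, 7.97 and 8.28, each the lowest of 47 in P1, and Ttc14 and Dcun1d5 were too, at 5.56 and 5.67. Tcf3, the E protein of lymphoid development, was lowest in P2 at 6.66, with 6.68 in P1 and 7.32 in P3. Without P1, 0 genes were lower at the threshold. With the tumour number as a block, Bmi1 (adjusted p = 0.063), Dhx36 (0.051), Syncrip (0.072), Snx5 (0.14), Tcf3 (0.11) and Dcun1d5 (0.11) lost the call by limma, and Bccip and Ttc14 did not. Below all 44 in all 3 spleens were Sfr1 (6.69, 7.09 and 7.15), Mbd1 (6.61, 6.60 and 6.60, just under the lowest of the 44) and Cir1 (5.64, 5.82 and 5.64), of which Cir1 passed (adjusted p = 0.021; 0.074 with that block).

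Taken singly, P1 was the most unusual spleen. It was above all 44 for 1576 genes (8.67%), against 458 (2.52%) for P2 and 370 (2.04%) for P3, and below all 44 for 1807 (9.94%), 221 (1.22%) and 127 (0.699%). Genes more than 1 log2 unit above the highest of the 44 numbered 31 in P1 (0.171%), 16 in P2 (0.088%) and 9 in P3 (0.0495%). Counted against all 46 others, P1 had 26 such genes, the most of any spleen, P2 had 14 and P3 had 5; the 44 had from 0 to 24, with a median of 5. P3 was thus no more unusual than a typical tumour of the series by this count. These single spleens have no replicate and were not tested.

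In P1 the genes furthest above the 44 were Epx, Prg3, Cpa3, Mcpt8, Akr1c18, Akr1c13, Ear3 and Arsb. Akr1c18, a progesterone-metabolising reductase, was 7.50 with at most 5.31 in the 44, and Arsb, a lysosomal sulphatase, was 9.19 with at most 7.58. Epx, Prg3, Cpa3, Mcpt8 and Ear3 among them are the eosinophil and basophil genes already described. The genes furthest below were Cnbp (8.67 against at least 9.70), Bmi1, Snx5 and Mbnl1 (8.34 against at least 9.18).

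In P2 the leading genes were Ap3b1, Olfm4, BC080696, Itgb3bp, Tnc, Col1a2, 4930480G23Rik and Corin. Ap3b1, a subunit of a lysosomal sorting adaptor, was 11.00 with at most 8.49 in the 44, yet its other probe set gave 6.20, the 43rd of 47. The probe sets of Ap3b1 therefore disagree, and its height in P2 rests on 1 of them. Itgb3bp, a centromere protein that also binds Itgb3, was 7.96 with at most 6.07 and was highest in P2 by 3 of its 5 probe sets. Myb, the transcription factor of immature haematopoietic cells, was 7.84 in P2, 9.27 in P1 and 9.52 in P3 against 8.10 to 9.93, and all 3 of its probe sets were lowest in P2. Ikzf1, Tcf3 and Snhg3 were also lowest of 47 in P2. A second Ikzf1 probe set, near the floor, did not place P2 lowest, at 5.26 against a median of 5.28 and ranked 33 of 47. The Tcf3 probe sets ranked P2 47, 47 and 46.

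In P3 the leading genes were Tbxas1, Cpne5, Adam8, Mcpt8, Cpa3, Fcer1a, Trabd2b and Tuba8. Tbxas1, thromboxane synthase, was 9.94 in P3, 6.36 in P1 and 5.76 in P2 with at most 5.94 in the 44. It was higher over the 3 by 1.79 ± 0.29 (SE, limma adjusted p = 0.00012), and by 0.50 without P3 (adjusted p = 0.00043). Its SD was 2.26 in the 3 and 0.11 in the 44. Cpne5, a calcium-dependent membrane-binding copine, was 8.89 in P3 with at most 6.07 in the 44, and the metalloprotease Adam8 was 8.03 with at most 5.84. Over the 3, Adam8 was higher by 1.41 ± 0.18 (SE, limma adjusted p = 9.7e-07) and passed without each of the 3 in turn. P3 thus paired basophil genes with Tbxas1 and Adam8, of which P1 was also above all 44 and P2 was not. Bccip, Oga, Snhg6 and Ctsc were furthest below, with Ctsc, the peptidase that activates granule proteases, at 6.34 against at least 6.59.

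**Figure D5:**
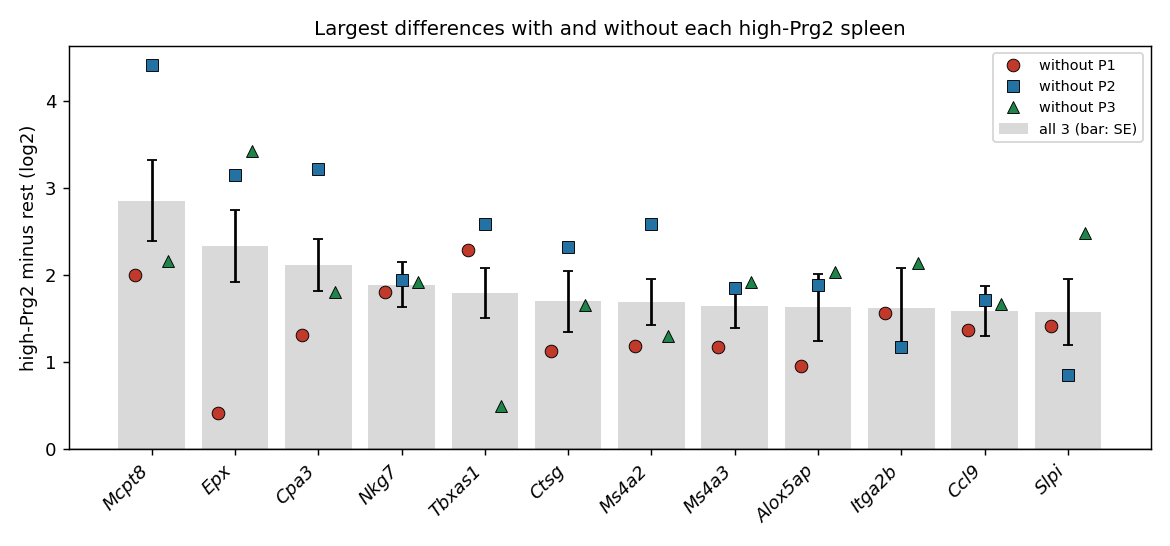
Log2 difference of the 3 high-Prg2 spleens from the 44 for the 12 genes with the largest increase, as bars with the SE, and the same difference without P1, P2 or P3 as points. Nkg7 and Ccl9 change little, Epx falls from 2.34 to 0.42 without P1, Mcpt8 ranges from 2.00 to 4.42, and Tbxas1 falls to 0.50 without P3.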

How the data were processed

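The deposited values are log2 expression that the authors made with RMA in the affy package of R 2.15, per the submitters' processing notes; RMA corrects background, quantile normalizes arrays and summarises each of 45101 probe sets. Values near log2 5 sit at the floor, so differences of dim genes are compressed. Precision is limited by the number of arrays. The platform annotation names a single gene for 34945 of them. The brightest probe set per gene over the 47 arrays was kept (18193 genes). Prg2 was set aside, 15 genes that did not exceed log2 5 on 9 or more arrays were removed, and 18177 were tested. P-values came from lmFit and eBayes of limma 3.58.1 under R 4.3.3, were adjusted over all 18177 genes by the Benjamini-Hochberg method and were called under 0.05; the code was checked by simulation. The sides were set by a measured gene, and each array is 1 mouse.

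The members and the 21 gene lists were chosen with earlier results of these data known. The rule for naming genes took the measured members of the eosinophil, basophil and mast cell lists. It took the 12 largest increases and 8 largest decreases that passed. In each other list it took the 3 genes with the smallest adjusted p that passed, or else the 2 with the smallest p. In each spleen it took the 8 genes furthest above and the 4 furthest below the 44. Not every gene that the rule took is printed. Those left out include members of the eosinophil surface and mast cell lists and some genes of lists where none passed. Members of lists that this rule does not name (such as S100a8, Mpo, Gp1bb, Itgb3, Usp18, Ifi27l2a, Elane, Vpreb1, Gzmb, Cd3e, Il5 and Csf2rb), and genes whose sides do not overlap, were chosen after their values were seen. Alternatives were other limits for Prg2, its level as a continuous measure, other filters, centring, covariates, a block for the tumour identifier number, robust variances, separate probe sets, a restricted comparison side and leaving out each of the 3 spleens.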

Additional observations from a re-analysis of the deposited data

How the results depend on the processing

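No paired analysis was possible because the sides come from the Prg2 level and share no replicate numbering. With 229 genes higher and 84 lower as reported, the counts were 68 and 77 for genes above log2 6 in at least 3 arrays (7181 tested), 138 and 27 with the tumour identifier number as a block, 471 and 330 against the 23 spleens low in Vpreb1 and Cd3d, and 975 and 1043 with Prg2 as a continuous measure. With the limit at log2 8, which leaves P1 as a lone sample assumed to vary like the others, they were 918 and 876. Leaving out each of the 3 gave 69 to 507 higher and 0 to 394 lower. Without the 4 spleens between log2 6 and 7, an alternative chosen after seeing the data, 301 were higher and 173 lower. With the limit at log2 6 the counts were 154 and 75, of which 65 and 16 were shared with those reported. No filter, centring, covariates, robust variances and separate probe sets gave 217 to 266 higher and 63 to 105 lower. The 8 genes above all 44 became 1518 at log2 8, 1 at log2 6 and 23 to 94 without each spleen, and the 3 below became 1789, 0 and 9 to 62. The age difference of 0.242 ranged from -8.59 (reversed, without P2) to 7.91. Col1a2, 1.11 as reported, reversed to -0.018 with the limit at log2 8. The fewer samples or genes of an alternative are its own construction; otherwise the cause was not tested. Of 49 called genes named for their list, their size of difference or sides that do not overlap, 8 kept the call without each spleen in turn. With the tumour identifier number as a block, 14 of the 49 lost it. The 49 leave out genes named only for standing out in a single spleen, such as Adam8, and those named under other observations.

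Having only 3 high spleens, unlike each other, limits what the group comparison can show, and P1 has both the highest Prg2 and the widest control gap, so the part of Prg2 and that of RNA quality cannot be told apart in P1. Dim genes lie near the array floor, where little difference can be seen.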

Other observations

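Ikzf2 and Pdgfrb, chosen after their values were seen, were high in P1 without belonging to the eosinophil or basophil lists. Ikzf2, a zinc finger factor of the Ikaros family, was 8.31 in P1, the highest of 47, against 6.03 in P2, 5.89 in P3 and a median of 5.58. Pdgfrb, a receptor of perivascular cells, was 8.23 in P1, the highest of 47, against 6.94 and 5.91. Erg, whose transposon insertion the labels record, was 5.49 in P1, labelled without an insertion, and 6.68 and 7.81 in P2 and P3, labelled with it, around a median of 6.59 in the 44.

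Among the 17 genes that passed without each of P1, P2 and P3 in turn, several were dim and carry no role in the lists. Rnf144b, an E3 ubiquitin ligase, was 6.69, 6.67 and 6.53 against a median of 5.46. Eml2, a microtubule-associated protein, was 6.25, 6.37 and 6.46 against a median of 5.69. Ptgir, the prostacyclin receptor, was 6.06, 6.50 and 5.83 against a median of 5.50. Spns3, a transporter of the spinster family, was 7.07, 5.77 and 6.31 against a median of 5.52. These were named after their values were seen.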
